A study of Mus musculus with 4 samples.

Results

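The S100 genes encode small calcium-binding proteins. Described here are 10 of them, S100a1, S100a4, S100a6, S100a7a, S100a8, S100a9, S100a10, S100a11, S100a13 and S100a16, chosen by name from the 21307 named genes on the arrays. Each had 1 probe, so the group is 10 of 41174 probes. Total RNA from STMN1-/- and STMN1+/+ mouse embryo fibroblasts (MEFs, connective tissue cells grown out of embryos) was compared directly on 4 Agilent 2-color arrays, each of which carried both genotypes. STMN1-/- RNA was labeled with Cy3 on arrays 1 and 2 and with Cy5 on arrays 3 and 4.

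Both genotypes are of strain C57BL/6 per the labels, which name no treatment and no age. STMN1 encodes stathmin, which destabilizes microtubules, and the study asked how its loss changes the transcriptome. In the mutant allele a neomycin cassette disrupts the gene in every cell, and MEFs were kept as cultures of low passage number. The MEF line and RNA extract behind each array are not given in the sources used here, so p-values reflect only how far the arrays differ, and that spread may be technical. All 4 arrays lie on 1 slide. Between 24808 and 25916 probes per array were well above background for STMN1-/- RNA, and between 25122 and 26029 for STMN1+/+ RNA. Log2 ratios correlated across probes, which are not independent replicates, with r of 0.688 to 0.702 where the dyes ran the same way and of 0.445 to 0.488 where they were swapped. Of the 2 Stmn1 probes, that on chromosome 4 (mm7) at 133849207 to 133849266 was 4.46 fold lower and that at 133852044 to 133852103 was 1.31 fold lower in STMN1-/- MEFs, both on 4 of 4 arrays. The study describes a Stmn1 probe of this array design as also matching another chromosome, without saying which probe. Neither value is therefore taken as a measure of the Stmn1 transcript left. The study states that qRT-PCR found no STMN1 mRNA, and western blotting no such protein, in STMN1-/- MEFs. Fibroblast markers were high in both genotypes, and all 9 of them were well above background.

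Most S100 proteins pair up as dimers, and each subunit folds around EF-hands, helix-loop-helix motifs whose loop holds the calcium ion. Calcium opens a surface on the dimer that docks a partner, such as an annexin, a myosin or another cytoskeletal protein. Several S100 proteins also leave the cell and act as ligands of the receptors RAGE (gene Ager) and TLR4. In skin, many S100 genes are active in keratinocytes and lie within the epidermal differentiation complex, a cluster of genes for the outer layers of the epidermis. In fibroblasts the best known is S100a4, also called fibroblast-specific protein 1.

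The S100 transcripts that passed the test were lower in STMN1-/- MEFs. Of the 10 genes, 8 were well above background in at least 1 genotype on at least 1 array and were tested. The log2 ratio of STMN1-/- over STMN1+/+ fell in 4 genes (S100a7a, S100a6, S100a10 and S100a13) and rose in 0, while S100a1, S100a4, S100a11 and S100a16 did not pass limma's test (Benjamini-Hochberg adjusted p under 0.05). Over all 15806 named genes tested, 12.2% fell and 13.1% rose, 25.3% in all. The median log2 ratio was -0.52 over the 8 tested S100 genes and 0.00 over all genes. At an unadjusted p under 0.05 in limma, 6 fell and 0 rose, and the count that rose was 0 with every alternative run, the methods' t-test included. The share of all genes at an unadjusted p was not counted, here or for the lists below. Counts at an unadjusted p are therefore not read as a result about these genes. A lower signal in a culture can come from fewer cells of a type or from less RNA per cell, and these cannot be told apart here.

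**Figure D1:**
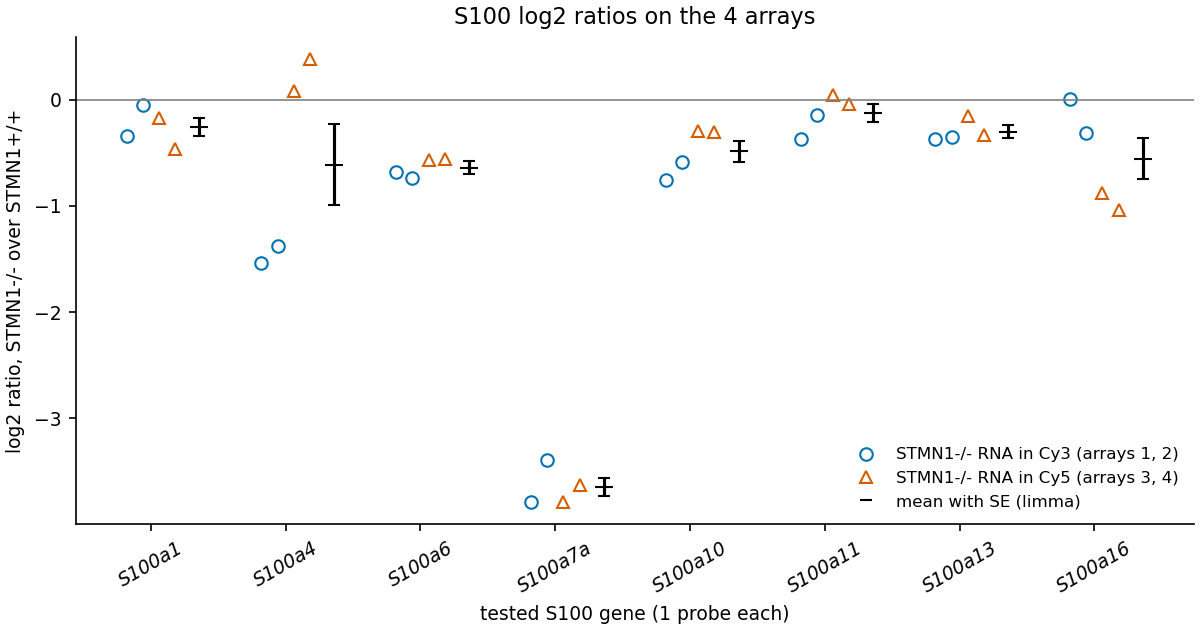
Log2 ratio of STMN1-/- over STMN1+/+ (vertical axis) for the 8 tested S100 genes (horizontal axis). Circles are arrays 1 and 2 with STMN1-/- RNA in Cy3, triangles are arrays 3 and 4 with STMN1-/- RNA in Cy5, and the black mark is limma's mean with its standard error. S100a7a lies near -3.64 on every array, whereas the circles of S100a4 lie below zero and its triangles above.

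Among the S100 proteins known as extracellular signals, S100a7a changed most. S100a7a, named S100a15 on the array, encodes koebnerisin, a keratinocyte protein of inflamed skin that also attracts leukocytes. Its probe lies on the plus strand of chromosome 3 (mm7), chr3:90788202-90788261. Its first 30 bases are shown in lower case because this is the S100 transcript with the largest ratio here.

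S100a7a probe: gttcagtaaaagaagtttagtttttattat

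Processed signals of S100a7a in STMN1+/+ MEFs were 942.8, 962.4, 1255 and 1269 on arrays 1 to 4. In STMN1-/- MEFs they were 68.6, 92.0, 91.0 and 103.0. The groups did not overlap, and no array had a STMN1-/- signal well above background, while all 4 had such a STMN1+/+ signal. The size of the fold change is therefore uncertain. By the processed signals, S100a7a was 12.5 fold lower in STMN1-/- MEFs, with 10.5 to 13.8 fold on single arrays. The fitted log2 ratio was -3.64 with an SE of 0.09 (limma, adjusted p = 0.000603), and it was lower on 4 of 4 arrays. Among the 8 tested S100 genes it was the only one that passed the test with a fold of at least 2, as 1.59% of all tested genes did in the downward direction. With another background correction (normexp, followed by loess), its log2 ratio was -0.99 and no longer passed (limma, adjusted p = 0.0585). With that correction 2 of the 8 S100 genes fell, S100a6 and S100a13, beside 5.40% of all genes.

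S100a8 and S100a9 encode the subunits of calprotectin, a major cytosolic protein of neutrophils and monocytes and a ligand of TLR4 and RAGE. Neither genotype was well above background for either gene on any array, so they were not tested and no fold change is given. S100a8 signals were 31.1, 38.1, 24.5 and 27.5 in STMN1-/- MEFs and 96.5, 99.9, 67.7 and 86.8 in STMN1+/+ MEFs on arrays 1 to 4. The STMN1+/+ signal was the higher of the pair on every array, and on 3 arrays the STMN1-/- value was a surrogate that the scanner software writes for very dim spots. S100a9, on the minus strand at chr3:90822865-90822924, had signals of 33.7, 44.5, 28.5 and 68.6 in STMN1-/- MEFs and 29.5, 61.4, 53.5 and 97.5 in STMN1+/+ MEFs. The genotypes overlapped, and array 1 went the other way from arrays 2, 3 and 4. Without the filter on dim probes, S100a8 passed limma's test as lower in STMN1-/- MEFs (adjusted p = 0.00263 over 41139 probes) and S100a9 did not (adjusted p = 0.235). The p-value of S100a8 rests partly on the surrogates, whose spread is not that of a measured signal, so no change is read from it.

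The S100a8 probe lies on the plus strand at chr3:90800058-90800117 (mm7), in the coding part of the transcript. It is shown with the S100a6 probe because both read through an EF-hand. Capitals mark the bases whose reading frame encodes the later part of an EF-hand loop and the start of its exit helix, found by a search for the spaced acidic residues of that loop.

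S100a8 probe: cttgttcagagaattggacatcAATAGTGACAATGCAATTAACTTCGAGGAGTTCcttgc

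S100a6 probe: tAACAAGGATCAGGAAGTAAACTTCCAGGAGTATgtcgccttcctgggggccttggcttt

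S100a6 encodes calcyclin, a protein of dividing cells that binds CacyBP, annexins and tropomyosin. Its probe lies on the plus strand at chr3:90744440-90744499. S100a6 signals in STMN1-/- MEFs were 764475, 768230, 795240 and 1007700 on arrays 1 to 4, against 1228900, 1280220, 1181410 and 1486620 in STMN1+/+ MEFs. Every STMN1+/+ signal was above every STMN1-/- signal. The log2 ratios were -0.68, -0.74, -0.57 and -0.56, so the arrays of both dye orientations lay close together. S100a6 was down-regulated 1.56 fold, with a log2 ratio of -0.64 and an SE of 0.06 (limma, adjusted p = 0.00358), and it passed under all 15 alternatives that gave a test. On all 4 arrays both of its signals were scaled up from the low-intensity scan, which the software uses where the brighter scan saturates.

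S100a10 encodes p11, which has lost the ability to bind calcium and forms a complex with annexin A2 at the plasma membrane, where it helps to bind plasminogen. Its probe lies on the plus strand at chr3:93666231-93666290, and its first 30 bases are shown beside those of S100a13, the other gene with a modest fold change that passed.

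S100a10 probe: caaatgagatccaactccaattcaacaatc

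S100a13 probe: cctcatttgctcaaggacgtgggctctcta

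S100a10 signals in STMN1-/- MEFs were 62494, 91096, 129217 and 190385 on arrays 1 to 4, and in STMN1+/+ MEFs 105346, 137147, 158493 and 235244. Signals of both genotypes differed between arrays more than between genotypes, so the groups overlapped, yet within each array the STMN1-/- signal was the lower. The log2 ratios were -0.75, -0.59, -0.29 and -0.31, larger in size where STMN1-/- RNA was in Cy3. S100a10 was down-regulated 1.40 fold, with a log2 ratio of -0.49 and an SE of 0.10 (limma, adjusted p = 0.0278). Leaving out any 1 array ended this call, with limma's adjusted p between 0.0575 and 0.102, as did normexp (0.0587), no filter (0.0590) and the methods' t-test (0.0957).

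S100a13 takes part in the release of FGF1 and interleukin 1 alpha by a route that bypasses the endoplasmic reticulum. Its probe crosses an intron between 90647126 and 90655132 on the plus strand of chromosome 3. S100a13 signals in STMN1-/- MEFs were 25831, 26375, 25827 and 28631, and in STMN1+/+ MEFs 33296, 33670, 28655 and 36019. All STMN1+/+ signals lay above all STMN1-/- signals, by the smallest margin on array 3. The log2 ratios were -0.37, -0.35, -0.15 and -0.33. S100a13 was down-regulated 1.23 fold, with a log2 ratio of -0.30 and an SE of 0.06 (limma, adjusted p = 0.0307). This call was also lost when any 1 array was left out (limma, adjusted p 0.0548 to 0.113), without the filter (0.0761) and in the methods' t-test (0.0582).

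S100a4 encodes metastasin, which binds non-muscle myosin IIA and loosens its filaments. Its probe lies on the plus strand at chr3:90736122-90736182, and its first 30 bases are shown because its ratio turned with the dye.

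S100a4 probe: agtgttggggtgtagtttgccagtggggga

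S100a4 signals in STMN1-/- MEFs were 772943, 942640, 2050800 and 2171930 on arrays 1 to 4, and in STMN1+/+ MEFs 2243000, 2447220, 1935040 and 1664040. The log2 ratios were -1.54, -1.38, 0.08 and 0.38. STMN1-/- RNA gave the lower signal on both arrays where it was in Cy3 and the higher signal on both where it was in Cy5, and the signals of both genotypes were higher in Cy5 than in Cy3. Over the 4 arrays the log2 ratio was -0.61 with an SE of 0.38, which did not pass (limma, adjusted p = 0.309). The mean log2 ratio was -1.46 with STMN1-/- RNA in Cy3 and 0.23 with it in Cy5. With dye orientation as a second coefficient in limma, the dye coefficient was 0.85 with an SE of 0.07 (adjusted p = 0.0598), and the genotype ratio of the same size then passed (adjusted p = 0.0100, where 20.1% of all genes fell). All S100a4 signals were scaled up from the low-intensity scan, and its part in the difference between dye orientations was not tested.

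**Figure D2:**
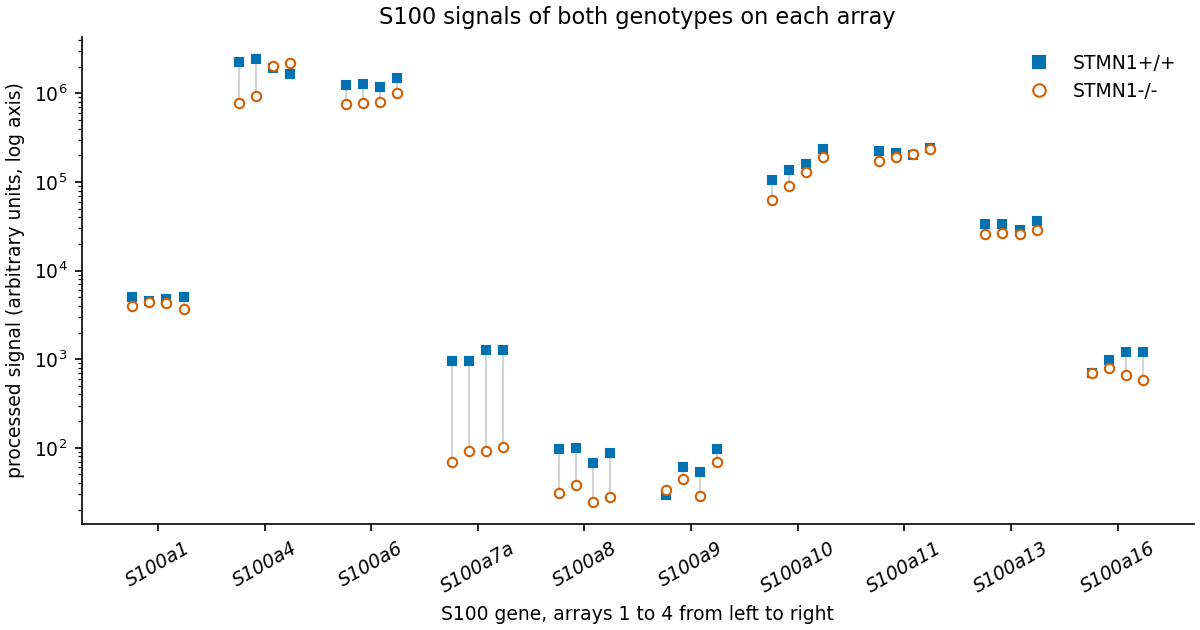
Processed signals (vertical log axis, arbitrary units) of the 10 S100 genes (horizontal axis), with arrays 1 to 4 from left to right within each gene. Squares are STMN1+/+ and open circles STMN1-/- MEFs, joined by a line within each array, and the heights of different probes cannot be compared. Long lines for S100a7a contrast with short ones for S100a11, and S100a4 changes order between arrays 2 and 3.

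S100a16, a widely expressed S100 gene with its probe at chr3:90672469-90672528 on the plus strand, also differed with dye orientation, in the opposite sense. Its signals in STMN1-/- MEFs were 697.4, 788.7, 659.3 and 584.5 on arrays 1 to 4, and in STMN1+/+ MEFs 695.9, 978.7, 1210 and 1199. The genotypes were level on array 1 and lay furthest apart on arrays 3 and 4. The log2 ratio was -0.56 with an SE of 0.19 (limma, adjusted p = 0.102, unadjusted p = 0.0335). Its mean was -0.15 with STMN1-/- RNA in Cy3 and -0.96 with it in Cy5, and with the dye term the genotype ratio passed (limma, adjusted p = 0.0126).

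S100a1, whose probe lies on the minus strand at chr3:90642309-90642368, is best known from heart and skeletal muscle, where it binds the calcium pump and the ryanodine receptor. It had log2 ratios of -0.34, -0.05, -0.17 and -0.46. All lay below zero, and array 2 came close to it. The log2 ratio of -0.26 with an SE of 0.09 did not pass (limma, adjusted p = 0.0958, unadjusted p = 0.0301). S100a11 (plus strand, chr3:93627811-93627870), or calgizzarin, which binds annexin A1 and acts in membrane repair and keratinocyte growth control, had log2 ratios of -0.37, -0.14, 0.05 and -0.04. These lay on both sides of zero, and the mean of -0.13 with an SE of 0.09 did not pass either (limma, adjusted p = 0.342). Of the 8 tested S100 genes, 5 (S100a1, S100a6, S100a7a, S100a10 and S100a13) were lower on 4 of 4 arrays, beside 25.0% of all genes with 4 values.

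Other S100 genes on the array were lower in STMN1-/- MEFs as well. Of 6 such genes, 4 were tested and all 4 fell. S100a14, an epithelial S100 gene, was well above background in STMN1-/- MEFs on 2 arrays and in STMN1+/+ MEFs on 4, with a log2 ratio of -1.45 and an SE of 0.21 (limma, adjusted p = 0.0108). S100b, the S100 gene of astrocytes and Schwann cells and the only tested one outside chromosome 3, with its probe on chromosome 10 (mm7) at 75915615 to 75915674, had signals of 990.9, 1052, 1075 and 1170 in STMN1-/- MEFs and 2511, 2563, 2257 and 2094 in STMN1+/+ MEFs. The groups did not overlap, and S100b was down-regulated 2.19 fold (limma, adjusted p = 0.00304). S100a3, a gene of the hair cuticle, was down-regulated 1.69 fold (limma, adjusted p = 0.00549) and S100a5 1.43 fold (adjusted p = 0.0297). With normexp, S100a14 and S100a5 no longer passed, with log2 ratios of -0.33 and -0.09 (limma, adjusted p = 0.0695 and 0.254). S100a5 was also lost without array 1, 2 or 4, with limma's adjusted p of 0.0949, 0.103 and 0.0773. S100g and S100a7l2, the latter found by name after the data were seen, were not well above background on any array.

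All 10 S100 genes lie on chromosome 3, and their probes span 3.02 Mb of mm7. From S100a1 to S100a9, 8 of them lie within 181 kb, and S100a11 and S100a10 follow 2.80 Mb further on, beyond the genes of the cornified envelope. Of the 25 other measured genes between the outermost S100 probes, 11 fell, 1 rose and 13 did not pass, with a median log2 ratio of -0.14. These counts and those of the S100 genes stand beside 12.2% of all genes that fell. The larger ratios belonged to late cornified envelope genes, which encode proteins of the hardened outer epidermis: Lce1g at -2.59, Lce1h at -2.39, Lce1i at -2.17 and Lce1e at -2.05. Lce1f rose, at 0.28. The Lce1 genes are close copies of each other, so their probes may share signal. Of the fused-type S100 genes, which join an S100 domain to a long repeat, Tchh (trichohyalin) fell with a log2 ratio of -0.49, while Flg, Flg2, Hrnr, Rptn and Tchhl1 were not well above background.

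**Figure D3:**
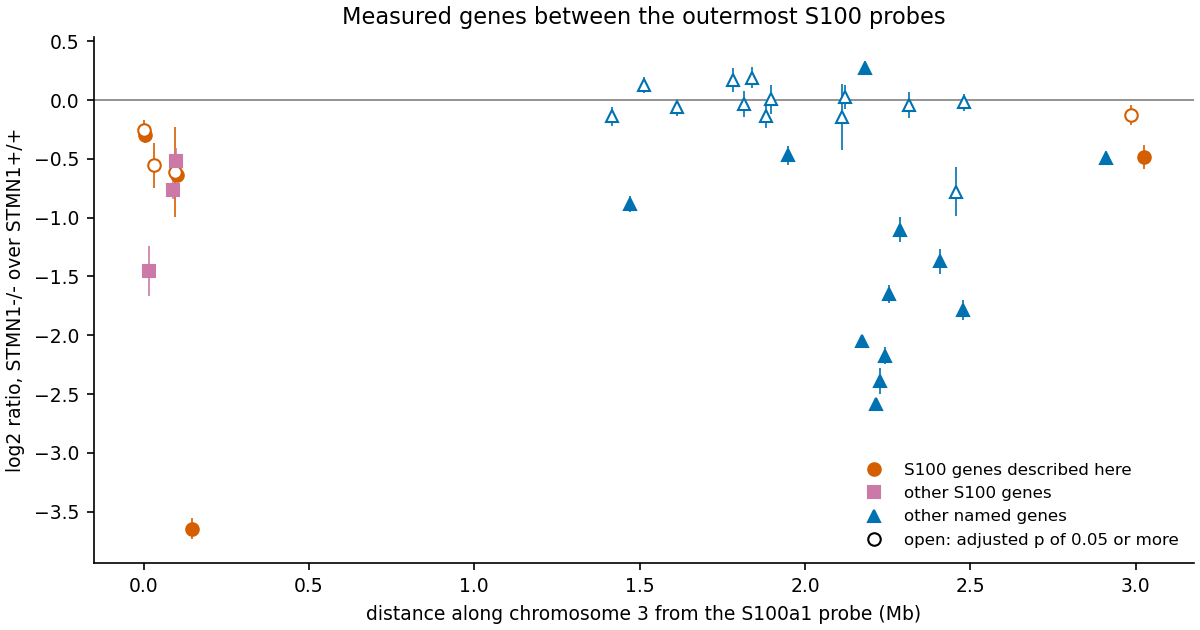
Log2 ratio of STMN1-/- over STMN1+/+ (vertical axis, with limma's standard error) against distance in Mb from the S100a1 probe along chromosome 3. Filled symbols passed limma's test and open ones did not. The 11 tested S100 genes in this interval lie below zero, and the other genes between them include values near zero and values as low as -2.59.

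Of the 7 receptors listed for S100 ligands, 4 fell, 0 rose and 3 did not pass (1 rose and 4 fell at an unadjusted p under 0.05 in limma), beside 12.2% of all genes that fell and 13.1% that rose. Ager, which encodes RAGE, was not well above background in STMN1-/- MEFs on any array, and on 2 arrays its STMN1-/- value was a surrogate. Its STMN1+/+ signals were 127.9, 141.5, 216.9 and 281.7 on arrays 1 to 4. By the processed signals, Ager was at least 6.11 fold lower (limma, adjusted p = 0.00253). Its mean log2 ratio was -2.28 with STMN1-/- RNA in Cy3 and -3.25 with it in Cy5. Cd36, a scavenger receptor that takes up fatty acids and binds S100a8 with S100a9, had a log2 ratio of -1.42 with an SE of 0.12 (limma, adjusted p = 0.00241). Alcam, an adhesion molecule related to RAGE, followed at -0.68 and Tlr4, the innate immune receptor, at -0.55. A second Tlr4 probe was not well above background. Fgfr1 pointed the other way at 0.67 on 4 of 4 arrays but did not pass (limma, adjusted p = 0.0565). With the dye term it passed as higher (limma, adjusted p = 0.00353, where 21.3% of all genes rose), and the 4 called receptors still passed as lower, which makes 1 that rose and 4 that fell.

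Inside the cell, 14 partners of S100 proteins were measured, of which 3 fell, 0 rose and 11 did not pass (1 rose and 4 fell at an unadjusted p under 0.05 in limma). Over all genes 12.2% fell and 25.3% were called in either direction. Cacybp, the binding protein of S100a6, had a log2 ratio of -0.44, Anxa1, the partner of S100a11, -0.34, and Ahnak, the giant scaffold protein bound by S100a10 with annexin A2, -0.32. The probes of Ahnak disagreed: another fell at -0.25, 3 did not pass, and 1 rose at 0.54. Anxa2, which forms the complex with S100a10, had log2 ratios of -0.12 with an SE of 0.09 and -0.01 with an SE of 0.13 at its pair of probes, neither of which passed (limma, adjusted p = 0.385 and 0.954). Myh9, the myosin bound by S100a4, had a mean log2 ratio of 0.00 and did not pass. Its mean was -0.30 with STMN1-/- RNA in Cy3 and 0.31 with it in Cy5. Among 11 annexins 3 fell, led by Anxa8 at -1.07 and Anxa3 at -1.01, and 0 rose, beside 12.2% and 13.1% of all genes. At an unadjusted p under 0.05 in limma, 3 annexins fell and 1 rose. Of 25 other EF-hand genes, 6 rose, 2 fell and 17 did not pass, where 13.1% of all genes rose and 12.2% fell, 25.3% in all. Tesc (tescalcin) rose with a log2 ratio of 1.10, and Rcn3 and Rcn1, reticulocalbins of the secretory pathway, rose at 0.83 and 0.64, while Gca (grancalcin) fell at -0.81.

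Markers of cell types that use S100 genes were read on the same arrays, and each count below stands beside 12.2% of all genes that fell and 13.1% that rose, 25.3% in all. Of 13 measured keratinocyte and epithelial markers, 10 fell, 0 rose and 3 did not pass (11 and 0 fell and rose at an unadjusted p under 0.05 in limma). By the processed signals, Cdh1 (E-cadherin) was 10.6 fold lower and Cldn4 2.62 fold lower, and Krt5 and Krt19 had log2 ratios of -1.56 and -1.29. The summed signal of these markers ranged from 124208 to 136112 over the arrays in STMN1-/- MEFs and from 167147 to 188409 in STMN1+/+ MEFs. Sfn was the brightest of them, averaging 55486 with STMN1 and 50888 without it, a difference that was not called (limma, adjusted p = 0.2805). Krt18 came next, at 35007 and 29371 in the same order, and fell 1.19 fold. Trp63 pointed upward at 0.32 without passing (limma, adjusted p = 0.1785). It was well above background on only 1 array in each genotype. Cdh1 and Cldn4 were not well above background in STMN1-/- MEFs on any array, so the size of their fold changes is uncertain. On 3 arrays the STMN1-/- value of Cdh1 was a surrogate. Epcam was not well above background in either genotype. The part of these markers in the lower S100a7a and S100a14 signals was not tested.

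Of 9 glial and neural crest markers, 7 fell, 1 rose and 1 did not pass, with Ngfr at -1.38, Mbp at -1.20 and Sox10 at -0.88. Their summed signal was 20519 to 25083 in STMN1-/- and 38830 to 44302 in STMN1+/+ MEFs, Gfap was not well above background, and their part in the lower S100b signal was not tested. Of 9 measured neutrophil and macrophage markers, 2 fell (Cd14 at -0.48 and Cd68 at -0.28), 1 rose (Csf1r at 0.28) and 6 did not pass. Among the neutrophil genes of the list, Camp, Ngp, Ltf, Elane and Lcn2 were not well above background in either genotype, and the same held for S100a8 and S100a9. Mpo was well above background in both genotypes on 4 of 4 arrays, with a log2 ratio of -0.28 that did not pass (limma, adjusted p = 0.102). The summed signal of the measured markers was 130518 to 152404 in STMN1-/- and 156817 to 178679 in STMN1+/+ MEFs. Most of it came from Lyz2, with means of 129200 and 151406, which did not pass (limma, adjusted p = 0.0858). The part of these markers in the S100a8 signals was not tested. Of 9 fibroblast markers, 8 rose, led by Col1a1 at 1.28, Col3a1 at 1.23, Col1a2 at 1.14 and Pdgfrb at 1.04, and only Vim fell, at -0.28. Their summed signal was 3405660 to 4415690 in STMN1-/- and 1888720 to 2262810 in STMN1+/+ MEFs.

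**Figure D4:**
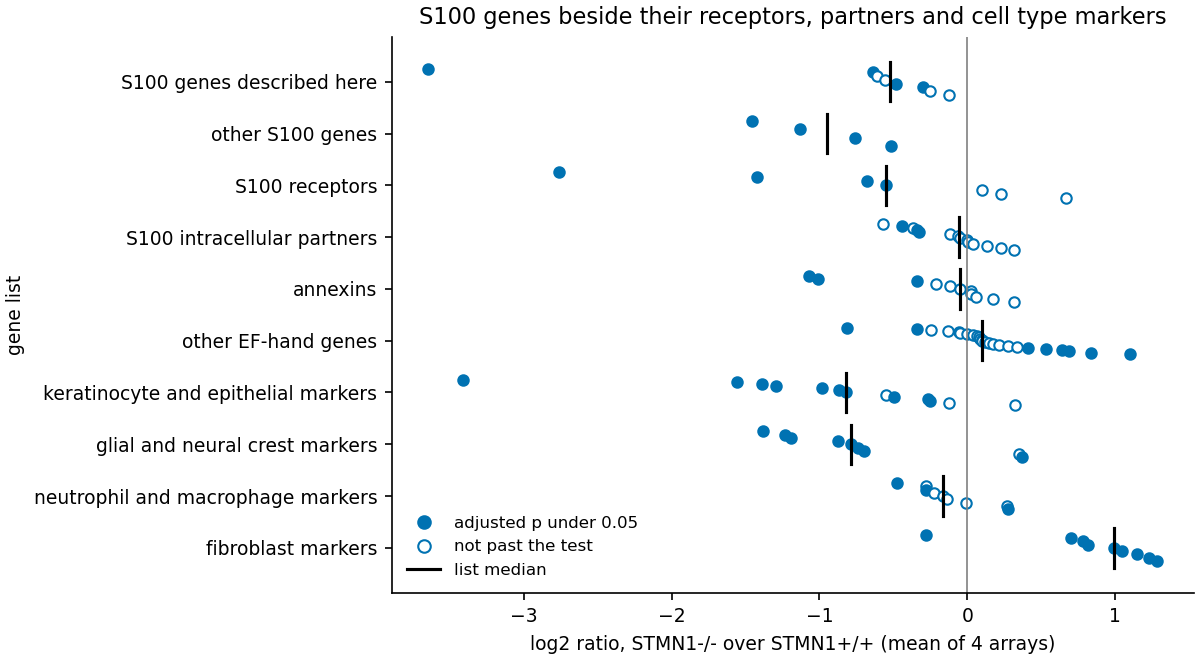
Log2 ratio of STMN1-/- over STMN1+/+ (horizontal axis, mean over the arrays) for each measured gene of 10 lists (vertical axis). Filled points passed limma's test, open points did not, and the black bar is the list's median. S100 genes, epithelial and glial markers lie mostly to the left of zero, and fibroblast markers mostly to the right.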

How the data were processed

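Each of 4 arrays held STMN1-/- and STMN1+/+ RNA in opposite dyes. Per the file headers, the intensity values were made by the authors with Agilent Feature Extraction 9.5.3.1, which subtracts background, joins a high and a low scan, applies LOWESS dye normalization per array and writes surrogates for dim spots. The deposited log10 values are Cy5 over Cy3 ratios of the same signals. The log2 values in the authors' deposited list are STMN1-/- over STMN1+/+ ratios, and they were used only as an alternative. A second deposited list was not used.

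Control spots (1639 of 45018) and spots marked as outliers were left out, spots of 1 probe were averaged, and the log2 ratio was turned by the dye labels. Probes were kept if, on 1 array or more, the signal of either genotype was well above background. The ratios of 27724 probes were set against 0 by limma 3.58.1 under R 4.3.3 (two-sided, Benjamini-Hochberg over these probes, threshold 0.05). The R packages jsonlite 2.0.0 and data.table (version 1.17.8) and for figures numpy 2.4.6, pandas 2.3.3 and, under Python 3.11.15, matplotlib 3.10.9 were used. A gene is its probe of highest mean signal. The "at least" fold of Ager sets its brighter mean against the higher, per array, of the dim signal and the lowest signal well above background. It is a minimum for the processed signals only. Coordinates are those of mouse build mm7 as the files give them. Probe sequences come from the same files.

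Members and lists were chosen with earlier results of these data known. Named are all 10 members, every other S100 gene, up to 4 called members of each list with the largest ratios, and Ager, Tlr4, Stmn1 and Anxa2, except 1 list member that is not reported here. Fgfr1, Myh9, Lyz2, Lce1f, Vim, Mpo, Sfn, Krt18, Trp63 and the list members given as not well above background were named after their values were seen. S100pbp, Krt17 and Rcn2 were named because the check for an outlying array flagged them. Alternatives were median centring, normexp (offset 50) with loess, scaling between arrays, the log10 column, other filters on dim probes, outlier spots kept, a dye coefficient, averaged dye-swapped pairs, the methods' t-test, the authors' list, each array left out, the median over probes and, added after the data were seen, each dye orientation alone. In simulated data of this comparison (26607 probes), the test recovered 0% of probes changed 1.2 fold, 34% at 1.5 fold, 58% at 2 fold and 94% at 4 fold. A far smaller share of probes was changed there than the 25.3% of genes called here, which makes the adjusted threshold stricter. These rates are therefore not those to be had in the real data. The number of arrays limits the precision.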

Additional observations from a re-analysis of the deposited data

Results flagged for a closer look

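On S100a13, array 3 stood apart from the other arrays, with a log2 ratio of -0.15 against -0.33 to -0.37, a gap of 0.838 of the whole range, above Dixon's critical value for 4 arrays. The same measure singled out array 2 for S100pbp (0.844 of the range, -0.11 against 0.19 to 0.24), array 4 for Krt17 (0.992, -0.72 against -1.07 on each of the others) and array 2 for Rcn2 (0.989, -0.07 against 0.14 on each of the others). These were 4 of 125 probes checked, and chance alone marks about 1 in 20.

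S100a4 had opposite signs of the log2 ratio in the 2 dye orientations, below zero on arrays 1 and 2 and above zero on arrays 3 and 4. The dye coefficient was 0.845 with an SE of 0.07, which corresponds to a 3.23 fold difference between orientations and did not pass after adjustment over all probes (limma, adjusted p = 0.0598).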

How the results depend on the processing

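The count of S100 genes that fell, 4 as reported, was 2 with normexp and loess (S100a6 and S100a13, where 5.40% of all genes fell), 2 with the methods' t-test (S100a6 and S100a7a), 7 when arrays 1 with 3 and 2 with 4 were averaged, and 2 whichever 1 array was left out (S100a6 and S100a7a each time). With the dye as a second coefficient, where 20.1% of all genes fell, it was 6. It was also 6 with arrays 1 with 4 and 2 with 3 averaged, and both settings added S100a4 and S100a16. Without the filter on dim probes it was 3 (S100a6, S100a7a and S100a8), and the S100a8 call rests partly on surrogates. The count of other S100 genes that fell, 4 as reported, was 2 with normexp and 2 with the methods' t-test. Over the lists beside the S100 genes, 40 fell as reported and 25 with normexp, where 12.2% and 5.40% of all genes fell. The share of all genes that fell was not counted for the settings given here without one. Counts under those settings are therefore not read as a result about the S100 genes. No log2 ratio of a tested S100 gene changed sign between the reported value and any alternative with a test. The cause of these differences was not tested. Each log2 ratio already pairs the genotypes within an array, and no further replicate block could be fitted, since the labels give 1 group. A comparison of probes within a gene was not run, since each S100 gene had 1 probe, and no block for slide or scan could be fitted, since all arrays share both. Signals near background limit S100a7a, S100a8, S100a9 and S100a14, and of the listed genes also Ager, Cdh1 and Cldn4.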
